A study of Mus musculus with 20 samples.

Results

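Voltage-gated and potassium channel genes were taken as all protein-coding genes whose GENCODE M21 symbol begins with Kcn, Scn, Cacna, Cacnb or Cacng, whether or not they were expressed. This gave 138 genes, all of which have a row among the 46603 gene identifiers of the count data. Among the genes the symbol rule takes in, some are not voltage-gated or potassium channels. These include Scnn1a, Scnn1b and Scnn1g, the subunits of the epithelial sodium channel, and Scnm1, a splicing factor. Left out were 5 non-coding genes with matching symbols (Kcnab3os, Kcnd3os, Kcnmb4os1, Kcnmb4os2 and Kcnq1ot1).

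Expression was measured by sequencing of poly(A) RNA from whole liver of male mice aged 2 months, in 4 groups of 5. Wild-type mice (WT) were C57BL/6J animals from The Jackson Laboratory. Knockout mice (KO, EedHepKO in the labels) carried an Alb:Cre transgene, in which the albumin promoter drives Cre in hepatocytes, and an Eedflox allele with loxP sites around exons 3 and 6 of Eed, a core subunit of polycomb repressive complex 2 (PRC2). Whether other liver cells of the KO mice, bile duct cells included, keep the gene was not measured. The baseline sample of a mouse was tissue of liver lobes 1, 2 and 3, which partial hepatectomy (PHx) takes out. The second sample was tissue of lobes 4, 5 and 6, collected 30 h (1 mouse per genotype), 40 h (2 mice) or 48 h (2 mice) after PHx. Genotype cannot be told apart from the source of the mice, nor the response to PHx from the lobe. The design asks how the loss of PRC2 function in hepatocytes alters expression before and during liver regeneration.

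Potassium channels set the resting membrane potential, and inward rectifiers and two-pore-domain channels carry current near rest. Voltage-gated sodium and calcium channels open on depolarisation and are best known from nerve, heart and muscle, where an alpha subunit forms the pore and beta, alpha-2-delta or gamma subunits control its gating and traffic. Hepatocytes do not fire action potentials, and in liver the potassium conductances are known for their part in cell volume, bile secretion and the driving force for transport. PRC2 methylates histone H3 at the promoters of many genes of other lineages, channels of excitable cells among them.

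Total counts per library ran from 21634890 to 30461351. Values per library are given as counts per 1000000 counts of the library size scaled by the trimmed mean of M values (CPM), and replicates are listed in the order of their numbers at baseline and by time after PHx. Coordinates of genes are those of GENCODE M21 on GRCm38. Eed, the targeted gene, ran from 14.6 to 23.2 CPM in the 10 WT libraries and from 2.74 to 7.52 CPM in the 10 KO libraries, with no overlap. The 7 hepatocyte markers (Alb, Apoa1, Ttr, Cps1, Hnf4a, Cyp2e1 and Pck1) were counted in every group, with 2 of them lower in KO at baseline and 1 after PHx. By the median library they summed to 123900 CPM in WT and 79790 CPM in KO at baseline, and to 85690 and 46160 CPM after PHx. The sum of 9 cholangiocyte markers was 57.05 and 163 CPM at baseline and 98.2 and 356 CPM after PHx, with 3 and 6 of the 9 called higher in KO. In the same order, 9 stellate cell and fibroblast markers summed to 237 and 516 CPM, then 211 and 452 CPM (6 and 4 called higher), and 9 macrophage markers to 203 and 480 CPM, then 190 and 332 CPM (3 and 1 called higher). The sum of 7 endothelial markers was 181 and 201 CPM, then 138 and 161 CPM, with 1 called higher at each stage. After PHx the hepatocyte, cholangiocyte, macrophage and endothelial sums of single libraries overlapped between the genotypes. A list of 10 neuron and glia markers summed to 1.29 and 2.62 CPM at baseline and to 1.66 and 2.51 CPM after PHx. The part of these cells in the channel results was not tested. In bulk RNA, more cells of a type and more RNA per cell cannot be told apart.

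Most channel genes were silent or close to it in WT liver, and more of them were counted in KO liver. In all, 17 of the 138 had no count in any of the 20 libraries: Cacna2d3, Cacng2, Cacng3, Kcna4, Kcnc2, Kcnf1, Kcnh5, Kcnip1, Kcnip4, Kcnj13, Kcnj6, Kcnk15, Kcnk18, Kcnk9, Kcnq3, Kcns2 and Kcnv1. A further 81 were counted in at least 1 library but were too low for the filter on low counts, and 40 were tested. Genes with at least 1 count in a group numbered 71 in WT at baseline, 96 in KO at baseline, 83 in WT after PHx and 116 in KO after PHx. A mean of at least 0.5 CPM was reached by 18, 27, 21 and 43 channel genes in the same order of groups, which is 13.04%, 19.6%, 15.2% and 31.2% of all 138. Over all 21624 protein-coding identifiers these shares were 53.5%, 58.1%, 55.3% and 60.4%.

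Single libraries showed the same order of genotypes. Between 16 and 22 channel genes reached 0.5 CPM in each WT library at either stage, between 27 and 33 in each KO library at baseline, and between 28 and 46 in each KO library after PHx. Every KO library thus lay above every WT library. The same order held for all protein-coding genes, of which 11444 to 11966 reached 0.5 CPM in each WT library and 12149 to 13081 in each KO library. Within KO after PHx, mice 7 and 8 (48 h) had 39 and 44, mice 10 and 11 (both 40 h) had 28 and 46, and mouse 12 (30 h) had 30, so that mice of the same time differed as much as mice of different times. A single count was worth 0.0459 to 0.0650 CPM in WT at baseline and 0.0219 to 0.0473 CPM in KO after PHx, so counting any read reached lower levels in the latter.

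**Figure D1:**
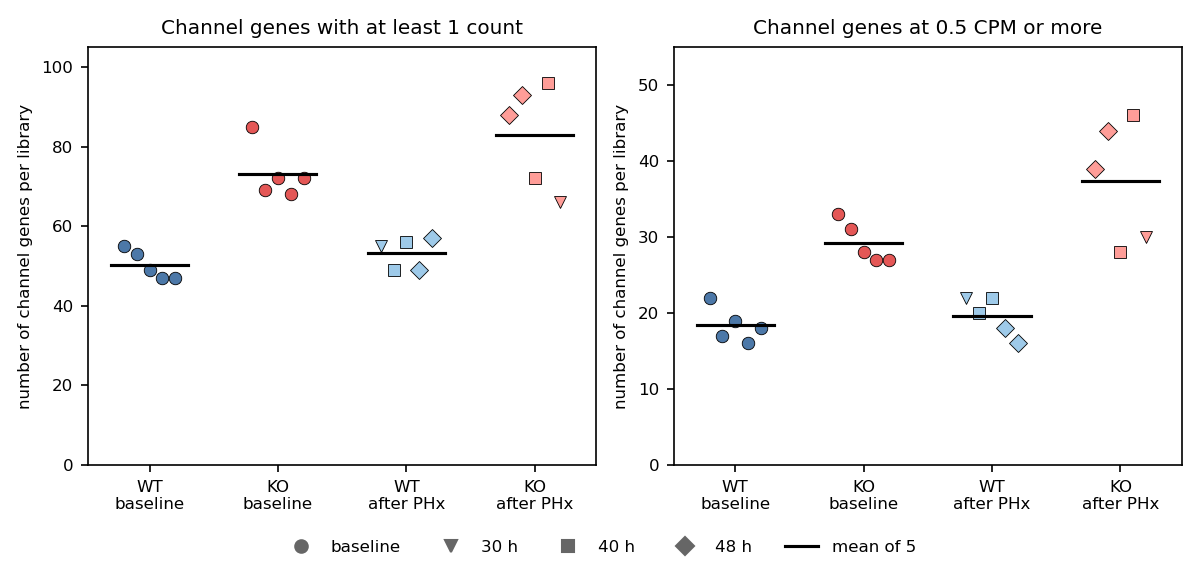
Number of the 138 channel genes with at least 1 count (left) and at 0.5 CPM or more (right) in each library, with 1 point per library, the marker shape giving the time after PHx and the line the mean of 5. At 0.5 CPM, WT libraries sit between 16 and 22 and KO libraries between 27 and 46.

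Most of the counted channel genes had a higher mean in KO. At baseline 81 channel genes had a higher mean CPM in KO and 20 a lower one, 80.2% of those counted, against 53.8% of protein-coding genes counted at that stage. After PHx 102 were higher in KO and 17 lower, or 85.7% against 57.4% of protein-coding genes. A mean of 0.5 CPM or more was reached in KO after PHx and in no other group by 14 channel genes, and in no case by WT at baseline, WT after PHx or KO at baseline alone. The same held for 631 of the 21624 protein-coding identifiers. These 14 were Cacna1a, Cacna1c, Cacna1g, Cacna1h, Cacnb1, Cacnb2, Kcnab3, Kcnd1, Kcnh2, Kcnip3, Kcnn3, Scn3b, Scnn1b and Scnn1g, of which 6 encode calcium channel subunits. No count in any of the 10 WT libraries and more than 3 counts over the 10 KO libraries were found for 20 genes, among them the neuronal potassium channel genes Kcna1, Kcnc1 and Kcns1, and for 863 of the protein-coding identifiers. A gene with 0 counts over a group could still be present at up to 3 counts, by counting error alone.

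Among the channel genes in WT liver at baseline, the potassium channel Kcnk5 and the sodium channel subunit Scnn1a had the highest mean CPM. Kcnk5, an acid-sensitive two-pore-domain channel, had 32.9, 14.99, 30.0, 35.2 and 32.4 CPM in WT at baseline and 34.9, 32.02, 29.3, 59.0 and 87.6 CPM in KO at baseline. After PHx it had 13.2 and 37.5 CPM at 48 h, 29.6 and 37.0 CPM at 40 h and 47.6 CPM at 30 h in WT. In KO it had 34.4 and 24.2 CPM at 48 h, 41.6 and 117 CPM at 40 h and 20.96 CPM at 30 h. One WT baseline library was low and one KO library after PHx stood far above the others, and the genotypes overlapped at both stages (edgeR adjusted p 0.265 at baseline and 0.396 after PHx).

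Levels of different genes were compared per kilobase of merged exons. In WT at baseline Kcnk5 had 8.55 ± 2.38 CPM per kb (SD, n = 5), Scnn1a 6.66 ± 0.672, Scnm1 4.19 ± 0.796 and Kcnn2, a small-conductance calcium-activated potassium channel, 3.36 ± 0.538 CPM per kb. The order of Scnn1a, Scnm1 and Kcnn2 depends on the length taken, since per kilobase of the longest transcript they had 7.87, 8.61 and 6.81 CPM per kb. Lower still were Kcnj8 with 0.882 ± 0.215 and Kcnn1 with 0.815 ± 0.188 CPM per kb of merged exons, which did not differ beyond their spread. In KO after PHx the highest were Kcnk5 with 14.01 ± 11.7 and Kcnk1 with 11.03 ± 9.32 CPM per kb, followed by Kcnj8 with 7.31 ± 10.3 CPM per kb, and neighbours in this order did not differ beyond their spread. Only 12 of the 138 had a mean of at least 0.5 CPM in all 4 groups, among them Kcna2, Kcnj8, Kcnk5, Kcnk6, Kcnn1, Kcnn2, Kcnt2, Scnm1 and Scnn1a.

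**Figure D2:**
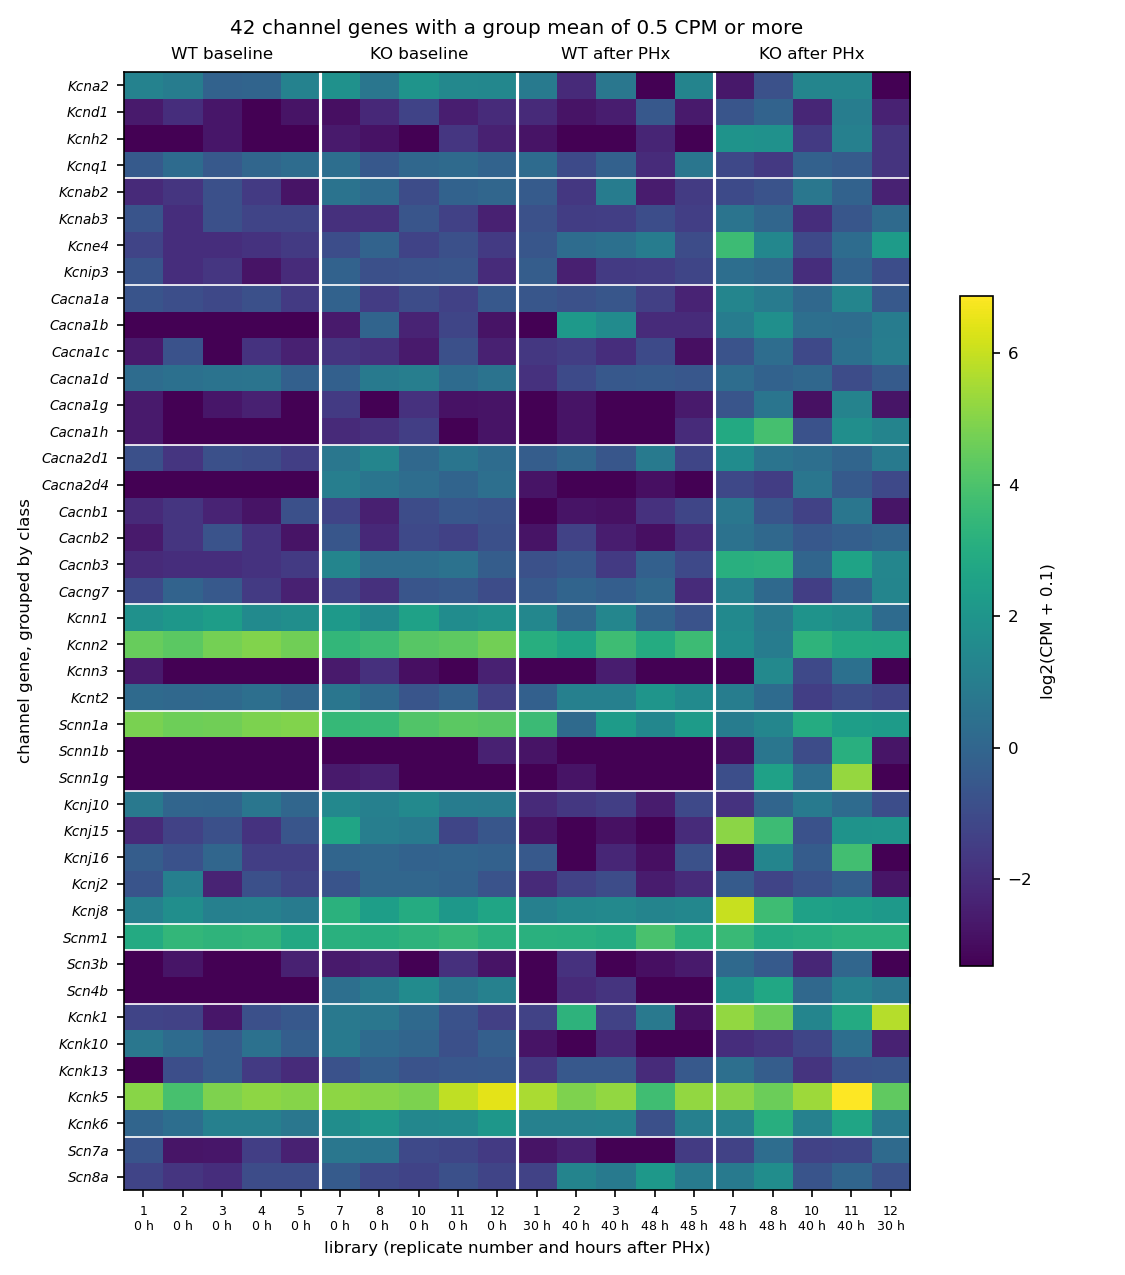
Level of 42 channel genes whose mean reached 0.5 CPM in at least 1 group, as log2 of CPM plus 0.1, with genes in rows grouped by class (white lines) and the 20 libraries in columns grouped by genotype and stage. Kcnk5 is high throughout, and many rows are dark in WT and lighter in KO after PHx, mostly in mice 7, 8 and 11.

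Promoter sequence was described because PRC2 is known to act at CpG-rich promoters. RefSeq windows of 300 bases, from 250 before to 50 after a RefSeq start of the gene on GRCm38.p6, were found for 101 of the 138 channel genes. The RefSeq start nearest to the GENCODE start was taken, with no limit on distance. It lay 239200 bases off for Kcnip4, 43240 for Kcnj12 and 1488 for Cacnb3, so some windows are not at the GENCODE start. A window was called CpG-rich at a GC share of at least 50% and an observed over expected CpG ratio of at least 0.6. This held for 35 of the 101 channel windows (34.65%) and for 48.1% of 16342 protein-coding windows of the same length. Of the 20 genes called higher in KO at either stage below, 14 had a window and 5 of these were CpG-rich, against 6 of 12 for the tested genes not called higher. Of the 20 genes with no count in WT, 16 had a window and 8 were CpG-rich. Silent genes had 4 CpG-rich windows of 13. The windows of Scn4b and Kcnj15, which had the largest log2 differences between the genotypes at baseline and after PHx, are shown with that of Kcnk5, the most abundant channel gene, and that of Scnn1g, which was nearly silent outside KO after PHx. CpG dinucleotides are in capitals, and each sequence reads 5′ to 3′ on the strand of the gene.
Scn4b (chr9:45138374-45138673, plus strand): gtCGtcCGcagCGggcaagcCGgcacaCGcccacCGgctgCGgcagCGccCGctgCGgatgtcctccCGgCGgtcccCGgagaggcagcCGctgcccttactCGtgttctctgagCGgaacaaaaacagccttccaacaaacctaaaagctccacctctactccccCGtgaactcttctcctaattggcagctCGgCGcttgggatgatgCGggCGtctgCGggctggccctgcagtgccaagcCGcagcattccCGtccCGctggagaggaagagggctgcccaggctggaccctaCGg
Kcnj15 (chr16:95257308-95257607, plus strand): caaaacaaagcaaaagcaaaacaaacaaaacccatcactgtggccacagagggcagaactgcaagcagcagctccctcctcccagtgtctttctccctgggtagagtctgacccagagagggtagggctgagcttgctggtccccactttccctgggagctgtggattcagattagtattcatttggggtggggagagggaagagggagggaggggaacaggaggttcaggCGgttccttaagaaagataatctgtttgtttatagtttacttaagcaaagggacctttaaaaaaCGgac
Kcnk5 (chr14:20181733-20182032, minus strand): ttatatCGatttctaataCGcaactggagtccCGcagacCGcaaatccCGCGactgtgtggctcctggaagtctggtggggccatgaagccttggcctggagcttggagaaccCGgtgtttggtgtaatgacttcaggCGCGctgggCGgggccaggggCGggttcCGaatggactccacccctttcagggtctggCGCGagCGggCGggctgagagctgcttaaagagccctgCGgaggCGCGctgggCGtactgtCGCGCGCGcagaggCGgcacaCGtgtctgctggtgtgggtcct
Scnn1g (chr7:121734229-121734528, plus strand): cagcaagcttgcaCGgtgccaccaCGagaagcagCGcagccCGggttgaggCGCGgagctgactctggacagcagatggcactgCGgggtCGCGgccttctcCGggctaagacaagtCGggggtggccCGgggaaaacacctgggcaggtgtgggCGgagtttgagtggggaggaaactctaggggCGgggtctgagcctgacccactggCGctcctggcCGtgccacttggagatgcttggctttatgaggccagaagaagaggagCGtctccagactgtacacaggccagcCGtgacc
The Scn4b and Kcnk5 windows held 26 CpG dinucleotides each, that of Scnn1g 18 and that of Kcnj15 2, with observed over expected ratios of 0.795, 0.878, 0.592 and 0.111. The RefSeq start behind the Scn4b window lies 229 bases from the GENCODE start. A match or lack of one describes these bases only, and no histone mark was measured.

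At baseline 4 of the channel genes that rose in KO were Scn4b, Cacna2d4, Cacna2d1 and Cacnb3. Of the 40 tested, 5 were higher in KO and none was lower. Scn4b encodes a beta subunit of sodium channels, and Cacna2d4, Cacna2d1 and Cacnb3 encode alpha-2-delta and beta subunits of calcium channels. The 5 genes were 12.5% of the channel genes tested, and over all genes tested 11.1% were called higher and 4.89% lower. The median log2 fold change was 0.93 over the 40 channel genes and -0.03 over all 14661 genes. In this and the other counts, a gene that passed the filter through the group where it is high was bound to differ.

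Scn4b (ENSMUSG00000046480, chromosome 9, 45138395 to 45154152) and Cacna2d4 (ENSMUSG00000041460, chromosome 6, 119236526 to 119352407) had no count in WT and 0.872 to 2.90 CPM in KO. Scn4b had 0 in all 5 WT libraries and 1.23, 1.73, 2.90, 1.54 and 2.11 CPM in KO, at least 62.4-fold higher against a floor of 3 counts over the group (fitted log2 fold change 8.63, SE 1.23, edgeR adjusted p 0.000187). Cacna2d4, known from the photoreceptor synapse, likewise had 0 in all 5 WT libraries and 1.96, 1.48, 1.14, 0.872 and 1.22 CPM in KO, at least 44.5-fold higher (fitted log2 fold change 8.12, SE 0.98, edgeR adjusted p 4.53e-05). Every KO library was above every WT library for both genes. Scn2b, which lies 8.33 kb from Scn4b and encodes another beta subunit, had no count in WT and 10 counts over KO at baseline, and was not tested.

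Cacnb3 (ENSMUSG00000003352, chromosome 15, 98630840 to 98644529) had 0.130, 0.150, 0.154, 0.183 and 0.229 CPM in WT and 2.39, 1.14, 1.14, 1.33 and 0.704 CPM in KO (log2 fold change 2.94, SE 0.57, edgeR adjusted p 0.00144). Cacna2d1, the subunit bound by gabapentin, had 0.455, 0.200, 0.463, 0.413 and 0.275 CPM in WT and 1.53, 2.37, 1.00, 1.45 and 1.13 CPM in KO (log2 fold change 2.04, SE 0.46, edgeR adjusted p 0.00453). In both genes the lowest KO library was above the highest WT library. All 5 calls held in each alternative that tested the gene, leaving out single libraries included. The count of genes called higher was 13 with library size alone, 12 in the fit of the 10 baseline samples, which also called 1 lower, 11 in DESeq2 and 8 with no filter. These fits tested 40, 27, 77 and 121 channel genes and called 24%, 21.4%, 12.2% and 6.3% of all their genes higher, and the fit of the 10 samples called 18% lower.

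The remaining channel genes at baseline did not pass the test, though 34 of the 40 had a positive log2 fold change. Kcnj8, the pore of a vascular ATP-sensitive potassium channel, had 2.08, 3.20, 2.06, 2.11 and 1.79 CPM in WT and 8.92, 5.11, 7.58, 4.19 and 6.29 CPM in KO (log2 fold change 1.51, SE 0.57, edgeR adjusted p 0.0764). Every KO library was above every WT library for Kcnj8, and it was called when only the 10 baseline samples were fitted (1.54, adjusted p 0.000333), in DESeq2 (1.54, adjusted p 0.0337) and under scaling by library size alone (2.00, adjusted p 0.0188). The sum of 7 smooth muscle and pericyte markers was 21.9 to 33.3 CPM in WT and 45.2 to 54.9 CPM in KO at baseline, also without overlap, and Abcc9, which encodes the partner of this channel and is one of the 7, had 13.4 to 20.3 CPM and 24.3 to 40.6 CPM. The part of these cells in the Kcnj8 level was not tested. Scnn1a had 28.2, 24.5, 24.95, 28.98 and 31.05 CPM in WT and 11.4, 11.4, 17.2, 19.7 and 18.6 CPM in KO (log2 fold change -0.81, SE 0.44, edgeR adjusted p 0.225), and here every KO library was below every WT library. Scnn1a too was called, as lower, in the fit of the 10 baseline samples (-0.79, adjusted p 0.00190). The log2 fold changes of Kcna2, Kcnq1, Kcnk1 and Kcnk5 were 0.82, 0.08, 1.51 and 0.74, and none of them was called. Those of Kcnj16, Kcnj10, Kcnn2 and Cacna1d were 0.70, 0.92, -0.52 and 0.20, also not called.

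At baseline 30 channel genes were counted in KO and not in WT, 13 of them with more than 3 counts, and most were too low for the test. Of these, Kcnj3, a G-protein-gated inward rectifier, had no count in WT and 0.232, 0.507, 0.310, 1.08 and 0.0469 CPM in KO, Kcnj9, of the same kind, had none in WT and 0.265, 0.0845, 0.345, 0.208 and 0.235 CPM in KO, and the neuronal sodium channel Scn2a had none in WT and 0.696, 0.465, 0.241, 0.0415 and 0 CPM in KO. With no filter on low counts edgeR called these 3 as well (adjusted p 0.00747, 0.0311 and 0.0297), and they were named after their values were seen. After PHx the 3 genes had at most 0.139 CPM in any KO library. In WT after PHx Kcnj3 had no count, and Kcnj9 had 0.304 CPM in mouse 3 alone. Scn2a had 0.174, 0.114 and 0.0343 CPM in WT mice 2, 3 and 5 at that stage. Kcnn4, the intermediate-conductance potassium channel, had 0.130, 0.250, 0.0514, 0.0459 and 0 CPM in WT and 0.962, 0.127, 0.379, 0.249 and 0.469 CPM in KO, and was too low for the test. Kcne3 had 1.36, 0.250, 0, 0.183 and 0.138 CPM in WT and 0.0995, 0.253, 0, 0.125 and 0.0469 CPM in KO, with 1 WT library far above the rest.

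**Figure D3:**
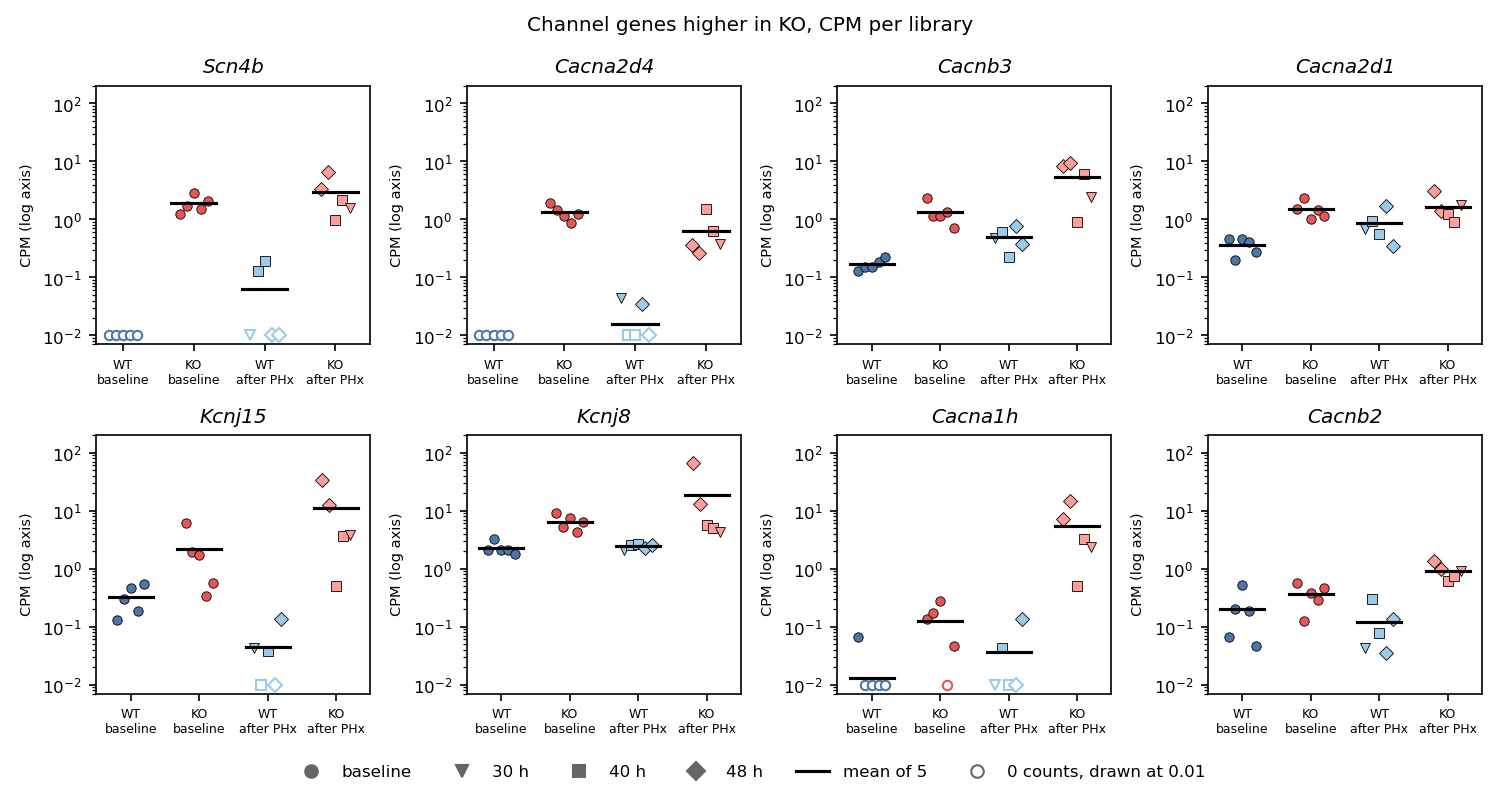
CPM on a log axis in each of the 20 libraries for 8 channel genes called higher in KO at one or both stages, with 1 point per library, open points for 0 counts (drawn at 0.01), marker shape for the time after PHx and a line for the mean of 5. Scn4b, Cacna2d4 and Cacnb3 show no overlap of genotypes at either stage, while Kcnj15 and Cacna1h spread over more than a factor of 10 within KO after PHx.

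After PHx the channel genes higher in KO encode both pore-forming and auxiliary subunits. Of the 40 tested channel genes 18 were higher in KO (45.0%) and 1 was lower (2.5%), against 16% and 8.2% of all genes tested. The genes that rose comprised 4 of the 5 tested inward rectifiers, 4 of the 6 tested calcium channel auxiliary subunits, 3 of the 5 calcium channel alpha-1 subunits, 2 of the 3 sodium channel alpha subunits, 2 of the 5 two-pore-domain channels, 1 of the 2 sodium channel beta subunits, 1 of the 5 voltage-gated potassium channel alpha subunits and 1 of the 4 auxiliary subunits of the latter. The median log2 fold change was 1.18 over the 40 channel genes and -0.01 over all genes tested. Scn4b, Cacna2d4 and Cacnb3 were called higher in KO at both stages, 15 genes only passed after PHx, and 2, Cacna2d1 among them, only at baseline. Whether the genotype difference itself changed between the stages is a separate test, given further below.

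Of the inward rectifiers, Kcnj15 (ENSMUSG00000062609, chromosome 16, 95257558 to 95300260) differed most. It had 0 and 0.137 CPM at 48 h, 0 and 0.0380 CPM at 40 h and 0.0436 CPM at 30 h in WT, 6 counts in all. KO libraries had 34.1 and 12.5 CPM at 48 h, 0.496 and 3.72 CPM at 40 h and 3.78 CPM at 30 h (log2 fold change 7.76, SE 1.19, edgeR adjusted p 0.000113). All 5 KO libraries were above all WT libraries, although they ranged from 0.496 to 34.1 CPM among themselves. Kcnj16, whose product pairs with those of Kcnj10 and Kcnj15, had 0.0354 and 0.481 CPM at 48 h, 0 and 0.114 CPM at 40 h and 0.610 CPM at 30 h in WT. The KO values were 0.0299 and 2.37 CPM at 48 h, 0.686 and 13.9 CPM at 40 h and 0 CPM at 30 h (log2 fold change 3.76, SE 1.19, edgeR adjusted p 0.0266). Mouse 11 lay far above the other KO libraries for Kcnj16, and without it the gene was not called (1.58, adjusted p 0.264), nor without WT mouse 3 or 4. Kcnj10 had 0.0709 and 0.378 CPM at 48 h, 0.217 and 0.266 CPM at 40 h and 0.131 CPM at 30 h in WT. In KO there were 0.180 and 0.899 CPM at 48 h, 1.68 and 1.08 CPM at 40 h and 0.426 CPM at 30 h (log2 fold change 1.98, SE 0.51, edgeR adjusted p 0.00774), with overlap, and the call was lost when only the 10 samples after PHx were fitted (2.00, adjusted p 0.0770).

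Kcnj8 (ENSMUSG00000030247, chromosome 6, 142564837 to 142571614) had 2.303 and 2.54 CPM at 48 h, 2.52 and 2.70 CPM at 40 h and 2.09 CPM at 30 h in WT. KO mice had 65.2 and 12.95 CPM at 48 h, 5.57 and 5.10 CPM at 40 h and 4.31 CPM at 30 h (log2 fold change 2.94, SE 0.59, edgeR adjusted p 0.00132). The KO libraries were all above the WT libraries, with mouse 7 about 5 times above the next, and without mouse 7 the difference was smaller but still called (1.54, adjusted p 0.00151). Kcnj8 is known from pericytes and smooth muscle, and the 7 markers of these cells summed to 39.9 CPM in that library, to between 26.96 and 68.01 CPM over KO after PHx and to between 25.7 and 56.5 CPM over WT after PHx. Abcc9 made up 25.6 CPM of that sum, within its range of 18.6 to 38.2 CPM in that group, which lay above the 11.7 to 18.2 CPM of WT after PHx. The pericyte marker Rgs4 had 7.09 CPM in mouse 7, against 0.457 to 1.09 CPM in the other 4 libraries, and its part here was not tested either.

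Among the calcium channels, the T-type channel gene Cacna1h (ENSMUSG00000024112, chromosome 17, 25374285 to 25433783) changed most. It had 0 and 0.137 CPM at 48 h, 0.0435 and 0 CPM at 40 h and 0 CPM at 30 h in WT, 5 counts in all. The values in KO were 7.21 and 14.4 CPM at 48 h, 0.496 and 3.19 CPM at 40 h and 2.32 CPM at 30 h (log2 fold change 7.02, SE 1.04, edgeR adjusted p 8.46e-05), with no overlap. Kcnj15 and Cacna1h were highest in mice 7 and 8, as was the cholangiocyte marker sum, which was 605 and 608 CPM in these libraries and 141 to 356 CPM in the other 3 of KO after PHx. In mouse 7 that sum came mostly from Spp1 (357 CPM) and Sox9 (169 CPM), while Krt7 (1.83 CPM) and Tspan8 (0.569 CPM) were at their lowest of the group there. The part of these cells was not tested. Cacna1a, the pore of the P/Q-type channel, had 0.283 and 0.103 CPM at 48 h, 0.478 and 0.571 CPM at 40 h and 0.567 CPM at 30 h in WT. Levels in KO were 2.39 and 1.80 CPM at 48 h, 0.991 and 2.41 CPM at 40 h and 0.615 CPM at 30 h (log2 fold change 2.04, SE 0.49, edgeR adjusted p 0.00471), and again the KO libraries lay above. Cacna1c, the pore of the cardiac and smooth muscle L-type channel, had a mean of 0.211 ± 0.131 CPM in WT and 1.03 ± 0.612 CPM in KO (SD, n = 5), with overlap (log2 fold change 2.27, SE 0.71, edgeR adjusted p 0.0249), and was not called without WT mouse 3 or 5 or KO mouse 12, with adjusted p from 0.0564 to 0.0603.

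The 3 tested calcium channel beta subunits all rose, and of the alpha-2-delta genes Cacna2d4 did. Cacnb3 had 0.779 and 0.378 CPM at 48 h, 0.609 and 0.228 CPM at 40 h and 0.479 CPM at 30 h in WT. In KO it had 8.498 and 9.36 CPM at 48 h, 0.915 and 5.99 CPM at 40 h and 2.46 CPM at 30 h (log2 fold change 3.45, SE 0.53, edgeR adjusted p 0.000118). Cacnb2 had 0.0354 and 0.137 CPM at 48 h, 0.304 and 0.0761 CPM at 40 h and 0.0436 CPM at 30 h in WT. KO libraries had 1.35 and 0.986 CPM at 48 h, 0.610 and 0.749 CPM at 40 h and 0.899 CPM at 30 h (log2 fold change 2.92, SE 0.62, edgeR adjusted p 0.00192). In both genes the lowest KO library was above the highest WT library. Cacnb1 averaged 0.120 ± 0.141 CPM in WT and 0.790 ± 0.694 CPM in KO (SD, n = 5) with overlap (log2 fold change 2.63, SE 0.84, edgeR adjusted p 0.0278), and its call was lost without WT mouse 1, 2 or 3 or KO mouse 7 or 11, with adjusted p up to 0.0770. Cacnb4 was too low for the test. Cacna2d4 had 2 counts over WT and 0.359 and 0.263 CPM at 48 h, 1.52 and 0.638 CPM at 40 h and 0.378 CPM at 30 h in KO, a ratio of 37.9 with a 95% counting interval from 10.2 to 317 (fitted log2 fold change 4.96, SE 0.77, edgeR adjusted p 0.000285). Cacna2d1 had a log2 fold change of 0.96 (SE 0.43, edgeR adjusted p 0.107) and was called only without WT mouse 4 (1.35, adjusted p 0.0274) and under scaling by library size alone (1.33, adjusted p 0.0229).

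Among the sodium channel genes, Scn4b was higher in KO after PHx as well. It had 0 and 0 CPM at 48 h, 0.130 and 0.190 CPM at 40 h and 0 CPM at 30 h in WT, 8 counts in all. The KO values were 3.41 and 6.66 CPM at 48 h, 0.991 and 2.16 CPM at 40 h and 1.56 CPM at 30 h (log2 fold change 5.46, SE 0.85, edgeR adjusted p 0.000274), with no overlap. The 7 cardiac and skeletal muscle markers summed to between 0.240 and 0.571 CPM in WT libraries after PHx and to between 0.568 and 6.94 CPM in KO libraries. Most of this was Tnnt2, with 6.88 and 6.66 CPM in mice 7 and 8 and at most 0.915 CPM in the other 8 libraries. Acta1 had no count in WT after PHx and 0.0599 to 0.343 CPM in KO, and Actn2 was counted in KO mouse 8 alone at that stage, at 0.1096 CPM. Myh7 and Myl1 were at 0 in every library, and Myh6 and Ckm had at most 0.0555 CPM after PHx. The part of muscle cells in the Scn4b level was not tested. Scn7a, a sodium sensor related to the channels, had a mean of 0.0742 ± 0.0996 CPM in WT and 0.628 ± 0.434 CPM in KO (SD, n = 5), without overlap (log2 fold change 2.98, SE 0.88, edgeR adjusted p 0.0190), and was not called without KO mouse 8 (2.62, adjusted p 0.0555). Scn8a, with -0.62 (SE 0.55, edgeR adjusted p 0.446), did not pass the test.

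Of the other potassium channel genes, Kcnk1, Kcnk10 and Kcne4 were higher in KO after PHx. Kcnk1 (ENSMUSG00000033998, chromosome 8, 125995170 to 126030685), a weakly inward-rectifying two-pore-domain channel, had 1.67 and 0.0343 CPM at 48 h, 9.56 and 0.304 CPM at 40 h and 0.305 CPM at 30 h in WT. KO mice had 36.8 and 23.8 CPM at 48 h, 2.40 and 7.43 CPM at 40 h and 52.8 CPM at 30 h (log2 fold change 3.38, SE 1.00, edgeR adjusted p 0.0184). One WT library at 40 h lay above the lowest 2 KO libraries, and the call was lost in the fit of the 10 samples (3.40, adjusted p 0.114) and with a term for time (3.63, adjusted p 0.0632). Kcnk10, a stretch- and lipid-sensitive channel, had 0 and 0 CPM at 48 h, 0 and 0.114 CPM at 40 h and 0.0436 CPM at 30 h in WT. The values in KO were 0.150 and 0.197 CPM at 48 h, 0.343 and 1.19 CPM at 40 h and 0.0946 CPM at 30 h (log2 fold change 3.50, SE 0.85, edgeR adjusted p 0.00516). Only 1 Kcnk10 library of each genotype overlapped. Kcne4, an inhibitory auxiliary subunit, had 1.84 and 0.412 CPM at 48 h, 1.13 and 1.26 CPM at 40 h and 0.567 CPM at 30 h in WT. In KO it had 12.6 and 2.56 CPM at 48 h, 0.381 and 1.11 CPM at 40 h and 4.73 CPM at 30 h (log2 fold change 2.03, SE 0.66, edgeR adjusted p 0.0292) and was not called without KO mouse 7 (1.11, adjusted p 0.189) or without WT mouse 1 or 5.

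The single gene lower in KO was Kcnt2, a sodium-activated potassium channel, which had 3.93 and 2.81 CPM at 48 h, 2.04 and 2.09 CPM at 40 h and 0.785 CPM at 30 h in WT. KO libraries had 1.89 and 1.07 CPM at 48 h, 0.267 and 0.416 CPM at 40 h and 0.331 CPM at 30 h (log2 fold change -1.53, SE 0.53, edgeR adjusted p 0.0394). The groups overlapped, and the call was lost with library size alone (-1.12, adjusted p 0.147), in the fit of the 10 samples (-1.53, adjusted p 0.149) and without WT mouse 3, 4 or 5 or KO mouse 10, 11 or 12. Over the 18 genes called higher, 10 stayed called in every alternative that tested them, among them Cacna1a, Cacna1h, Cacna2d4, Cacnb2, Cacnb3, Kcnj15, Kcnj8, Kcnk10 and Scn4b. When only the 10 samples after PHx were fitted 9 were called higher, in DESeq2 30, with no filter 34 and with a filter at 1 CPM 11. These fits tested 35, 77, 121 and 27 channel genes and called 8.12%, 16.6%, 10.3% and 15.6% of all their genes higher. With the time term Kcne4 (1.53, adjusted p 0.123) and Kcnj16 (3.07, adjusted p 0.144) were also lost.

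**Figure D4:**
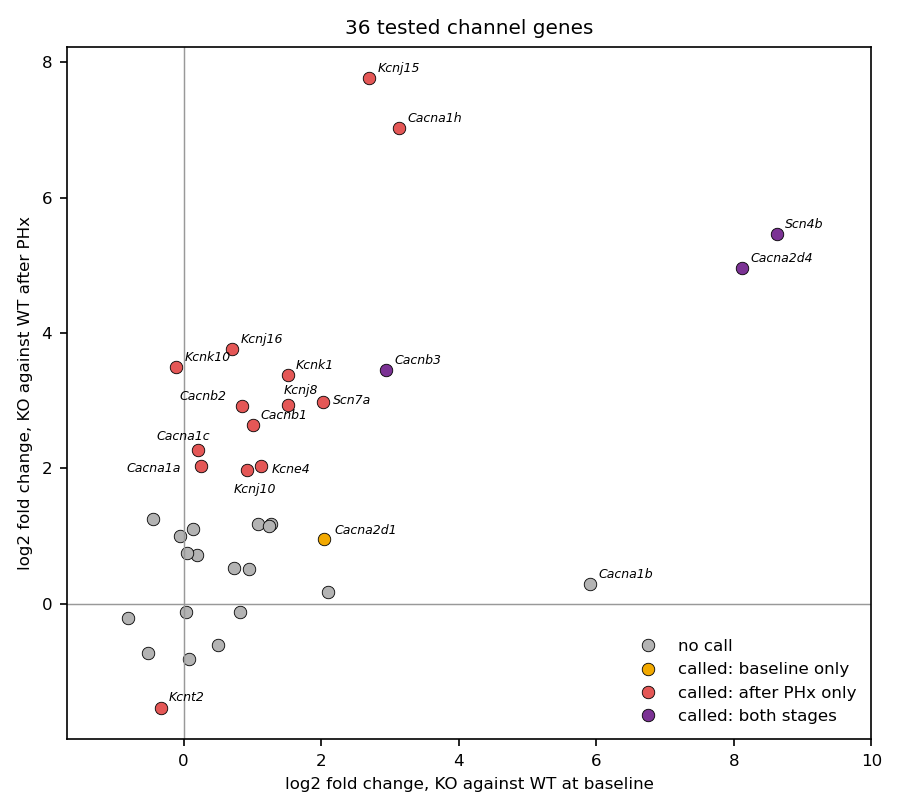
Log2 fold change of KO against WT at baseline (horizontal) and after PHx (vertical) for 36 of the 40 tested channel genes, with 1 point per gene and colour for the stage at which it was called. Scn4b and Cacna2d4 lie far right, Kcnj15 and Cacna1h highest, Kcnt2 is the only called gene below 0, and Cacna1b is labelled though not called in either comparison.

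Several channel genes that failed the filter were high in single KO libraries after PHx. Scnn1g and Scnn1b, neighbours on chromosome 7 that lie 96.6 kb apart and encode the gamma and beta subunits of the epithelial sodium channel, were the clearest case. Scnn1g had no count in WT at baseline, 1 count in WT after PHx and 0.449 and 5.65 CPM at 48 h, 1.22 and 38.1 CPM at 40 h and 0 CPM at 30 h in KO after PHx. Scnn1b likewise had 0.0299 and 1.49 CPM at 48 h, 0.419 and 8.54 CPM at 40 h and 0.0473 CPM at 30 h in KO after PHx. Both were highest in mouse 11, followed by mice 8 and 10, while Scnn1a, the alpha subunit, had 1.86 and 2.45 CPM at 48 h, 7.59 and 5.13 CPM at 40 h and 4.73 CPM at 30 h there. The cholangiocyte marker Krt19 was also highest in mouse 11, at 49.0 CPM, against 2.65 to 11 CPM in the other 4 KO libraries after PHx, and Krt7 had 22.7 CPM in mouse 8 and 16 CPM in mouse 11, against at most 3.74 CPM in the others. The part of biliary cells in these levels was not tested. With no filter edgeR called Scnn1g (log2 fold change 9.48, adjusted p 0.000709) and Scnn1b (7.37, 0.00289), and these and the next genes were named after their values were seen.

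Kcnh2, the cardiac rapid delayed rectifier, had 3.65 and 3.51 CPM at 48 h, 0.229 and 2.08 CPM at 40 h and 0.189 CPM at 30 h in KO after PHx and at most 0.208 CPM in any other library. Kcnn3, a small-conductance calcium-activated channel, had 0 and 2.67 CPM at 48 h, 0.381 and 1.28 CPM at 40 h and 0 CPM at 30 h, Cacna1g, another T-type channel, had 0.539 and 1.47 CPM at 48 h, 0.0381 and 2.25 CPM at 40 h and 0.0473 CPM at 30 h, and Scn3b, a sodium channel beta subunit, had 1.02 and 0.636 CPM at 48 h, 0.114 and 0.943 CPM at 40 h and 0 CPM at 30 h. In each of these 4 genes mice 8 and 11 were among the 3 highest, and mice 10 and 12 had at most 0.381 CPM. Over the 43 channel genes with a mean of at least 0.5 CPM in KO after PHx, the highest library was mouse 7 for 16 genes, mouse 8 for 9, mouse 11 for 9, mouse 10 for 6 and mouse 12 for 3. The lowest was mouse 10 for 17 and mouse 12 for 14. The untested gene Kcnma1, the large-conductance calcium-activated channel, had at most 0.378 CPM in any library.

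In WT some channel genes fell and others rose after PHx. Of the 40 tested, 6 fell and 5 rose. These were 15% and 12.5% of the channel genes, against 8.68% of all genes tested that fell and 11.4% that rose. With library size alone in place of TMM scaling 9 rose and 4 fell, against 25.9% and 3.97% of all genes tested, and the median log2 fold change over all genes moved from 0.04 to 0.40. The same scaling took this median to 0.45 for KO against WT at baseline, 0.37 after PHx and 0.37 for the response in KO, and the split of the called channel genes moved by under 10 percentage points in these. Of all genes called, library size alone took the share called higher from 69.5% to 96.9% for KO against WT at baseline, from 66.1% to 92.9% after PHx, from 56.9% to 86.7% for the response in WT and from 59.1% to 80.9% in KO.

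The genes that fell include Scnn1a and Kcnn2, which were among the most abundant in WT liver. Scnn1a (ENSMUSG00000030340, chromosome 6, 125320659 to 125344943) had 28.2, 24.5, 24.95, 28.98 and 31.05 CPM at baseline. After PHx it had 2.52 and 4.70 CPM at 48 h, 1.04 and 4.68 CPM at 40 h and 12.2 CPM at 30 h (log2 fold change -2.45, SE 0.47, edgeR adjusted p 0.00154). Kcnn2 (ENSMUSG00000054477, chromosome 18, 45268860 to 45686024) had 22.8, 19.8, 26.96, 30.4 and 25.5 CPM at baseline. WT libraries after PHx had 7.69 and 12.7 CPM at 48 h, 6.09 and 12.8 CPM at 40 h and 8.28 CPM at 30 h (log2 fold change -1.40, SE 0.36, edgeR adjusted p 0.0107). Every library after PHx was below every baseline library for both genes. Kcnk10 (ENSMUSG00000033854, chromosome 12, 98429437 to 98578310) fell most, from 1.56, 1.10, 0.669, 1.28 and 0.734 CPM to 0 and 0 CPM at 48 h, 0 and 0.114 CPM at 40 h and 0.0436 CPM at 30 h, 4 counts in all (log2 fold change -4.90, SE 0.85, edgeR adjusted p 0.000777), and Kcnj10, known from glia and kidney, fell from 1.62, 0.900, 0.875, 1.51 and 0.917 CPM to 0.0709 and 0.378 CPM at 48 h, 0.217 and 0.266 CPM at 40 h and 0.131 CPM at 30 h (log2 fold change -2.42, SE 0.51, edgeR adjusted p 0.00324), both without overlap. With the mouse as a block Kcnj10 missed the threshold (-2.21, adjusted p 0.0514). Kcnn1, from 3.74 ± 0.861 CPM to 1.47 ± 0.944 CPM (SD, n = 5, log2 fold change -1.35, SE 0.41, edgeR adjusted p 0.0266), and the L-type channel Cacna1d, from 1.19 ± 0.261 CPM to 0.479 ± 0.196 CPM (SD, n = 5, log2 fold change -1.29, SE 0.39, edgeR adjusted p 0.0235), fell without overlap.

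These last calls were less firm. Kcnn1 was lost with library size alone (-0.999, adjusted p 0.0867), with no filter (-1.29, adjusted p 0.0537) and without any of 5 single libraries (WT baseline mouse 2 or 3, WT mouse 2, 4 or 5 after PHx). Cacna1d was lost under library size alone (-0.93, adjusted p 0.0787), no filter (-1.24, adjusted p 0.0773), the mouse block (-1.10, adjusted p 0.143) and without WT baseline mouse 3 or 4 or WT mouse 2 after PHx. Exons of Cacna1d overlap Chdh on the other strand, a gene of 266 CPM in WT at baseline and 228 CPM after PHx, and the strand setting of the counts is not known, so reads of the genes cannot be told apart there.

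Of the genes that rose in WT, Scn8a, a neuronal sodium channel, had 0.325, 0.200, 0.154, 0.413 and 0.413 CPM at baseline. Libraries after PHx had 4.22 and 1.78 CPM at 48 h, 2.304 and 1.75 CPM at 40 h and 0.305 CPM at 30 h (log2 fold change 2.76, SE 0.61, edgeR adjusted p 0.00437), and only the library at 30 h stayed within the baseline range. Kcne4 had 0.325, 0.150, 0.154, 0.183 and 0.229 CPM at baseline. After PHx it had 1.84 and 0.412 CPM at 48 h, 1.13 and 1.26 CPM at 40 h and 0.567 CPM at 30 h (log2 fold change 2.31, SE 0.73, edgeR adjusted p 0.0303). Kcne4 did not overlap between the stages, but it lost the call with the mouse block (2.51, adjusted p 0.0626) and without any of 6 single libraries (WT baseline mouse 2, 3, 4 or 5, WT mouse 2 or 4 after PHx). Cacna1b, the pore of the N-type calcium channel, had no count at baseline. WT libraries after PHx had 0.142 and 0.137 CPM at 48 h, 4.48 and 2.89 CPM at 40 h and 0 CPM at 30 h, at least 47.4-fold higher (fitted log2 fold change 8.31, SE 1.90, edgeR adjusted p 0.00721). Most of the Cacna1b counts came from the pair of libraries at 40 h, and the library at 30 h had none.

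In KO, too, channel genes rose and fell after PHx. Of the 40 tested, 13 rose (32.5%) and 3 fell (7.5%), against 17.5% and 12.1% of all genes tested. The genes that fell, Scnn1a, Kcnn2 and Kcnj10, also fell in WT. Of those that rose, 3 also rose in WT, Scn8a and Kcne4 among them. The other 10, among them Cacna1h, Kcnk1, Cacna1c, Kcnj15, Cacnb3, Cacna1a, Cacng7, Kcnab3 and Kcnj8, passed the test in KO and not in WT. None of these differences passed the edgeR test over all 20 samples, while DESeq2 called that of Kcnj15 (5.14, adjusted p 0.0118). The count of genes that rose was 20 of 121 tested with no filter, 23 of 61 in DESeq2 and 8 of 27 with a filter at 1 CPM, where 9.34%, 20.1% and 18.4% of all genes rose. The KO comparisons share the KO libraries after PHx, so those genes overlap with the genotype difference after PHx by construction.

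Scnn1a had 11.4, 11.4, 17.2, 19.7 and 18.6 CPM in KO at baseline and 1.86 and 2.45 CPM at 48 h, 7.59 and 5.13 CPM at 40 h and 4.73 CPM at 30 h after PHx (log2 fold change -1.85, SE 0.46, edgeR adjusted p 0.00689). Kcnn2 had 10.6, 12.5, 18.6, 20.1 and 25.7 CPM at baseline and 2.99 and 1.82 CPM at 48 h, 9.95 and 7.16 CPM at 40 h and 7.002 CPM at 30 h after PHx (log2 fold change -1.60, SE 0.36, edgeR adjusted p 0.00435). Neither gene overlapped between the stages, and the values were lowest in both mice at 48 h. Kcnj10 had 2.62, 2.07, 2.65, 1.87 and 1.78 CPM at baseline (log2 fold change -1.36, SE 0.47, edgeR adjusted p 0.0354), also without overlap, and its call was lost with the mouse block (-1.61, adjusted p 0.0590), with library size alone (-1.09, adjusted p 0.0897), with no filter (-1.37, adjusted p 0.0651), in the fit of the KO samples alone (-1.35, adjusted p 0.0745) and without any of 7 single libraries, with adjusted p up to 0.0761.

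Cacna1h and Kcnk1 rose in KO without overlap. Cacna1h had 0.133, 0.169, 0.276, 0 and 0.0469 CPM at baseline (log2 fold change 5.38, SE 0.92, edgeR adjusted p 0.000923) and Kcnk1 1.63, 1.56, 1.03, 0.498 and 0.282 CPM (log2 fold change 4.61, SE 1.06, edgeR adjusted p 0.00475), and in both genes every library after PHx was above every baseline library. Kcne4 (3.22), Cacnb3 (2.02) and Cacna1a (1.77, all log2 fold changes) rose with overlap and held in each alternative that tested them. Cacna1c (2.36) missed the threshold only without KO baseline mouse 10 (2.13, adjusted p 0.0527) or 12 (2.19, adjusted p 0.0510).

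The other 5 rises in KO were lost under several alternatives. Kcnj8 (log2 fold change 1.54, SE 0.56, edgeR adjusted p 0.0444) depended on mouse 7, without whose library after PHx it did not pass (0.13, adjusted p 0.782), and it was lost with the mouse block (0.66, adjusted p 0.301). Kcnj15 (log2 fold change 2.33, SE 0.85, edgeR adjusted p 0.0451) had 6.20, 1.94, 1.72, 0.332 and 0.563 CPM at baseline, with mouse 7 highest at both stages, and was lost without mouse 7 after PHx (1.23, adjusted p 0.268). With the mouse block Scn8a (1.34, adjusted p 0.0562), the gamma subunit gene Cacng7 (1.48, adjusted p 0.113) and the potassium channel beta subunit gene Kcnab3 (1.65, adjusted p 0.128) were lost. All 5 were also lost with no filter and without at least 6 of the single libraries, and in the fit of the KO samples alone.

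**Figure D5:**
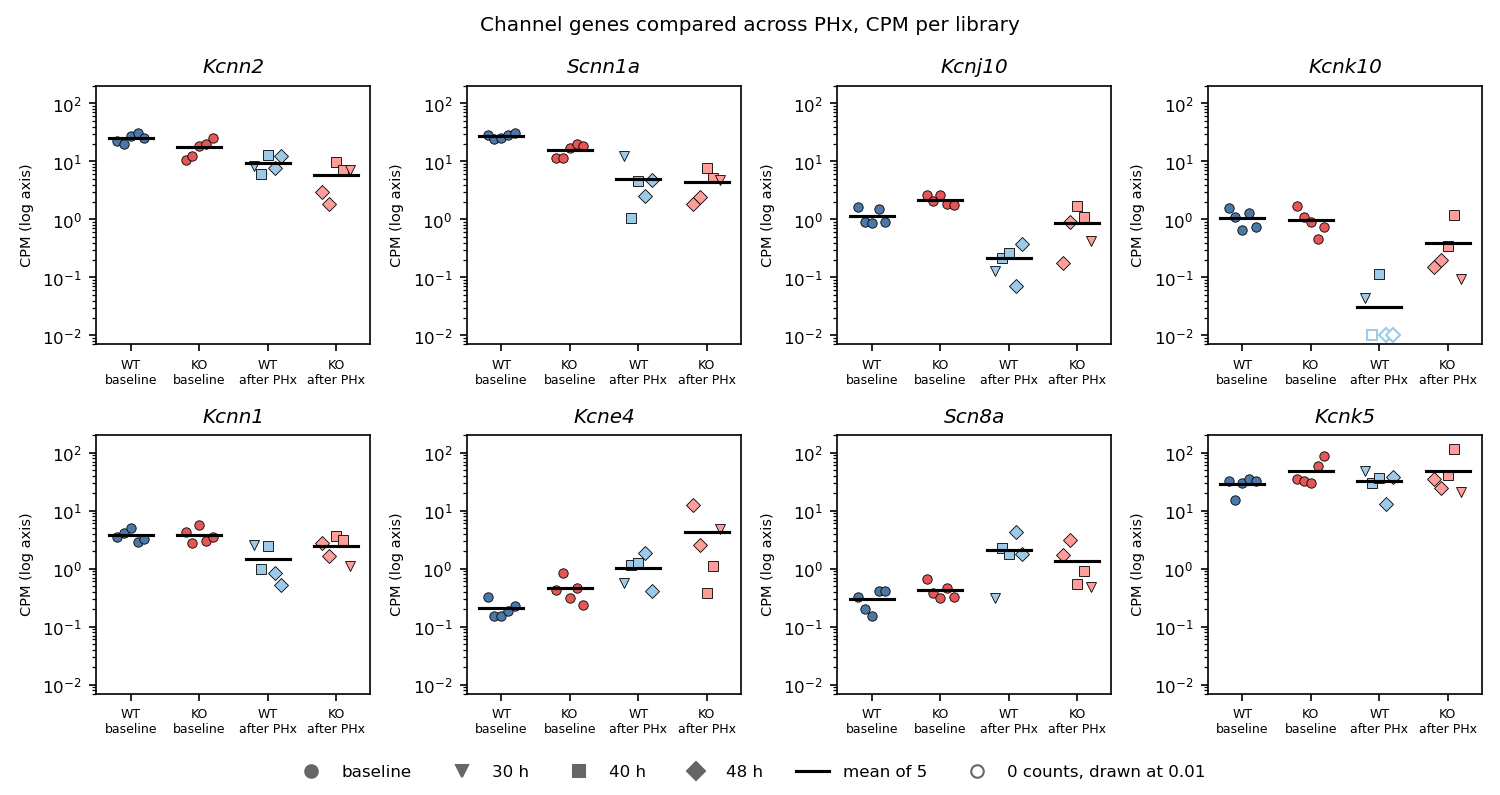
CPM on a log axis in each of the 20 libraries for 8 channel genes across the stages, with 1 point per library, open points for 0 counts (drawn at 0.01), marker shape for the time after PHx and a line for the mean of 5. Kcnn2, Scnn1a and Kcnj10 are lower after PHx in both genotypes, and Kcnk5 overlaps in all groups.

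Whether the genotypes responded differently to PHx was tested as the difference of the responses, and no channel gene passed it. The edgeR test called 0 of the 40, while 0.164% and 0.225% of all genes tested were called with a larger or a smaller response in KO, and 8 channel genes had an unadjusted p under 0.05. The smallest p were those of Kcnj15, with a difference of 5.06 (SE 1.45, edgeR adjusted p 0.139), and Kcnk10, with 3.61 (SE 1.06, edgeR adjusted p 0.146). Kcnj15 had a log2 response of -2.73 in WT and 2.33 in KO, and Kcnk10 of -4.90 and -1.29. DESeq2 called both (Kcnj15 5.14, adjusted p 0.0118, Kcnk10 3.79, adjusted p 0.0428), and edgeR called Kcnj15 without KO mouse 10 after PHx (5.36, adjusted p 0.0262). The difference of largest size was that of Cacna1b, and Cacna1h, at 3.89 (SE 3.11, edgeR adjusted p 0.625), lay above Kcnk10. Cacna1b and Cacna2d4 pointed the other way, with differences of -5.61 and -3.15 (edgeR adjusted p 0.322 and 0.371). By the edgeR test over all 20 samples, the genes called after PHx and not at baseline are therefore not shown to differ between the stages.

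Channel and pump genes outside the symbol rule were counted in 4 lists, beside all genes tested, of which 11.1% were higher and 4.89% lower in KO at baseline and 16% and 8.2% after PHx. Of 53 cation channel genes outside the rule (Hcn, Trp, Ryr, Itpr and others), 22 were tested, 7 were higher in KO at baseline, and 9 were higher and 1 lower after PHx. Chloride channel genes numbered 24, with 15 tested, 4 higher at baseline and 6 higher after PHx. Ligand-gated channel genes numbered 63, with 14 tested, 6 higher at baseline and 5 higher after PHx, and 14 of the 63 had no count in any library. Of 16 sodium pump genes and their regulators 11 were tested, 3 were higher at baseline and 5 after PHx. None of these lists had a gene lower in KO at baseline. The median log2 fold changes at baseline were 1.07, 0.37, 1.47 and 1.56, in the order given, beside 0.93 for the 40 channel genes and -0.03 for all genes tested.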

How the data were processed

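The deposited values are raw counts of reads per gene, made by the authors from poly(A) RNA libraries, with 1 column per sample and no normalization. The submitters' processing notes name Trimmomatic 0.36 and FastQC 0.11.5, and the design text names fastp 0.20.0, with mm10 as the genome and uniquely mapped reads used. The aligner, counter, strand setting and annotation are not given in the sources used here. Of 46603 identifiers 46091 were found in GENCODE M21, which gave symbols, gene types and exon lengths.

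Counts were tested with edgeR 4.0.16 (quasi-likelihood, R 4.3.3), with TMM scaling, filterByExpr, 4 group means over all 20 samples and Benjamini-Hochberg adjustment over 14661 genes at 0.05. Tests are two-sided. On simulated data with 200 genes changed by a log2 size of 2, the tests recovered 70% at baseline, 76% after PHx, 73.5% and 69% for the responses in WT and KO, and 54.5% for their difference, on 14310 to 14352 genes. Of the genes called, 0.709% to 5.48% were not among those changed. The changed genes were drawn at random from all genes tested, so these rates are not those of the channel genes, many of which are low. Alternatives were library size alone, no filter, a filter at 1 CPM in 5 libraries, only the samples compared, a time term, the mouse as a block, leaving out single libraries, and DESeq2 1.42.0 (limma 3.58.1 is loaded by edgeR). Intervals and floors cover counting error only.

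The labels pair both stages of a mouse by its number for 9 of 10 mice. Residual correlations of same-numbered samples ran from 0.03 to 0.11 in WT and from -0.06 to 0.20 in KO. The value of 0.11 is that of WT mouse 1, whose number is not in both titles. Differently numbered samples ran from -0.08 to 0.09 in WT and from -0.24 to 0.31 in KO, so these values do not bear out the pairing. Genes named are, per contrast, up to 12 called channel genes per direction with a mean of at least 0.5 CPM, plus a set list of 16, and others are marked where they appear. The members and all lists were chosen with earlier results of these data known. Some channel genes are counted in the totals and not reported here by name or in the plots of single genes.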

Additional observations from a re-analysis of the deposited data

Results flagged for a closer look

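Among 106 sets of 5 gene values and the per-group numbers of channel genes, 10 sets held a library far from the other 4. The number of channel genes flagged in KO at baseline is 1 of these 10 and is not among the 106. By chance about 5% of sets are flagged, or 1 in 20. In WT at baseline Kcne3 had 1.36 CPM in mouse 1, above the next library at 0.250 CPM, and mouse 2 stood apart for Kcnj8, at 3.20 CPM, above the others, and for Kcnk5, at 14.99 CPM, below them. In WT after PHx Kcnk1 had 9.56 CPM in mouse 2. In KO at baseline mouse 7 was far above the others for Kcnj15, at 6.20 CPM, and for the number of channel genes with at least 1 count, at 85. In KO after PHx mouse 7 stood apart for Kcnj8, at 65.2 CPM, and mouse 11 for Kcnj16, at 13.9 CPM, Kcnk10, at 1.19 CPM, and Kcnk5, at 117 CPM.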

How the results depend on the processing

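The counts of called channel genes depended on the fit more than their direction did. For KO against WT at baseline 5 higher became 13 with library size alone, 8 with no filter, 11 in DESeq2 and 12 with only the samples compared, which also gave 1 lower. Leaving out single libraries gave 5 to 6. After PHx 18 higher became 34 with no filter, 11 with the CPM filter, 9 with only the samples compared and 30 in DESeq2, and 16 to 22 without single libraries. Channel genes tested numbered 40 with all samples, 121 with no filter and 27 with the CPM filter. They numbered 35 with only the samples compared and 77 in DESeq2 after PHx, and 27 and 77 at baseline. The single lower gene became 0 with library size alone and with only the samples compared, and 0 to 1 without single libraries. In WT 5 rises became 9 with library size alone and 3 of 19 tested with only the samples compared, and 3 to 7 without single libraries. In KO 13 rises became 20 with no filter, 8 with the CPM filter and 23 in DESeq2, and 8 to 14 without single libraries. For the difference of the responses 0 became 2 in DESeq2 and 0 to 1 without single libraries. With the mouse as a replicate block 4 of 43 tested genes rose and 4 fell in WT (5.9% and 7.31% of all genes), and 11 and 2 in KO (10.8% and 11.7%). The block ended the calls of Cacna1d, Kcne4 and Kcnj10 in WT and of Cacng7, Kcnab3, Kcnj10, Kcnj8 and Scn8a in KO. It added rises of Cacna1b and Scnn1g in KO. Scnn1g failed the filter on low counts in the fit of all 20 samples. Its rise was also called without the block, by edgeR with no filter (7.96, adjusted p 0.00225) and in DESeq2 (8.24, adjusted p 0.00317). Single-gene values were recomputed for the named genes only. Those that changed sign were not called in the comparison concerned. They were Kcna2 after PHx (-0.12, then 0.28 with library size alone and -0.69 to 0.32 without single libraries), Scnn1a after PHx (-0.21, then 0.12 with library size alone and -0.51 to 0.42 without single libraries), Kcnk5 after PHx (-0.15, without KO mouse 11, to 0.72 without single libraries), and Kcnq1 at baseline (-0.024 to 0.20 without single libraries, below 0 without WT mouse 1 or 3). In the WT response Kcnq1 became 0.22 with library size alone and -0.49 to 0.17 without single libraries. In the KO response Kcnk5 became 0.36 with library size alone, 0.0059 in DESeq2 and -0.70 to 0.29 without single libraries, Cacna2d1 became -0.16 (without mouse 7) to 0.38 without single libraries, and Kcnj16 became -0.36 with the replicate block and -0.21 (without mouse 11) to 2.34 without single libraries. At a mean of 0.1 CPM in place of any count, 40, 55, 39 and 69 channel genes were seen in WT at baseline, KO at baseline, WT after PHx and KO after PHx. Per kilobase of the longest transcript, Kcnn2, Scnn1a and Scnm1 in WT at baseline had 6.81, 7.87 and 8.61 CPM per kb. The cause of these shifts was not tested. Of the 98 channel genes not tested, 17 had no count in any library and could still be present below this depth.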
